A study of Drosophila melanogaster with 6 samples.

Results

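The genes described here encode the subunits of the proteasome of Drosophila melanogaster, measured in RNA from adult heads. They were chosen by name: a probe set belonged when its annotation gave a single gene symbol that began with Prosalpha or Prosbeta, or with Rpn or Rpt followed by a digit. For a gene with several such probe sets, the set with the highest mean log2 signal was used. This gave 39 genes out of 10844 genes with a probe set of a single symbol. Of the 39, 26 exceeded a signal of 40 on at least 1 array and were tested; the other 13, all copies whose symbols carry a T or an R after the subunit number, stayed at or under 40 on every array. The tested genes were 6 of the α ring (Prosalpha), 6 of the β ring (Prosbeta), 4 ATPases (Rpt) and 10 non-ATPases (Rpn). Each of the 26 was above 40 on all 6 arrays.

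The proteasome degrades proteins that carry chains of ubiquitin. Its barrel-shaped core particle is a stack of rings, in which the outer α rings guard the entrance and the inner β rings hold the protease sites, and its regulatory particle recognizes the substrate, removes the ubiquitin and threads the unfolded chain into the core by means of a ring of ATPases. Subunits are needed in fixed proportions, and in animals from flies to mammals cap'n'collar-type transcription factors (cnc in the fly) can raise many subunit mRNAs together when proteasome activity is low.

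LARK is an RNA-binding protein that takes part in the daily timing of adult emergence. The LARK overexpression flies came from elav-gal4 females crossed to UAS-lark males, so that the transgene was driven in neurons throughout the nervous system; the males of this population carried elav-gal4 and 1 copy of uas-lark, and the females elav-gal4/+ with uas-lark/+. The control flies came from elav-gal4 females crossed to w1118 males and thus carried the driver without the transgene. Both populations mixed the sexes, grew at 25°C under 12 h of light and 12 h of darkness, and were frozen at ZT6, that is, 6 h into the light phase; the sources used here do not give the age of the adults. The question was whether more LARK in neurons alters the level of RNAs. By the series' description, each genotype gave 1 total RNA sample that was labeled and hybridized 3 times, in which case the p-values below measure labeling and hybridization spread between 1 sample and 1 other, not the spread between flies. The signals of some genes go against a single LARK overexpression sample: fln, a flight muscle gene, read 20.6 on array 1 and 926.1 and 1243 on arrays 2 and 3, and the trypsin gene alphaTry read 13.4, 476.5 and 429. What the standard deviations and p-values hold beside labeling spread was therefore not fully established. A known part is the different scaling of the hybridization days, described below. The standard deviations and the fit with the genotype alone used the signals as deposited and so include it. In RNA from whole heads, fewer cells of a type and less RNA per cell cannot be told apart.

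The probe set of the overexpressed gene, lark, read 265, 143.3 and 165.5 on the LARK overexpression arrays, against 223.5, 156.4 and 192.3 on the control arrays (log2 difference -0.03, standard error 0.45, adjusted p = 0.9993 from limma). Where its probes lie relative to the transgene was not examined, so the genotype labels remain without a check by this gene. Same-numbered arrays shared a hybridization day and had been scaled alike, to 2% trimmed means near 150, 85 and 100 for days 1, 2 and 3. The LARK overexpression arrays had 6312 to 8132 probe sets above 40, and the control arrays had 6708 to 8555. LARK overexpression array 1 stood apart from arrays 2 and 3 of its genotype, with correlations of 0.877 and 0.892 across kept probe sets, against 0.912 with control array 1; arrays 2 and 3 correlated at 0.946, and the control arrays among themselves at 0.921 to 0.931. Photoreceptor genes gave high signals in both genotypes (Arr2, an arrestin, between 5805 and 10285 with LARK overexpression and between 8071 and 9466 in the control).

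All 26 tested subunits had a positive log2 difference between LARK overexpression and control heads, against 43.8% of the 9432 kept probe sets. Their median difference was 0.83, with a range of 0.16 to 1.36, while the median over all kept probe sets was -0.07. The subunits also lay close together: the interquartile range of their differences was 0.22, against 0.64 for all kept probe sets. In 24 of the 26 the difference exceeded that of a 1.5-fold change (9.52% of kept probe sets did) and in 5 it exceeded 2-fold (4.09%). Those 5 were Rpn11, Prosalpha6, Rpt2, Rpt4 and Prosalpha5. The 2602 kept probe sets above 100 on every array had a median difference of 0.03, with 1388 of them above 0.

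**Figure D1:**
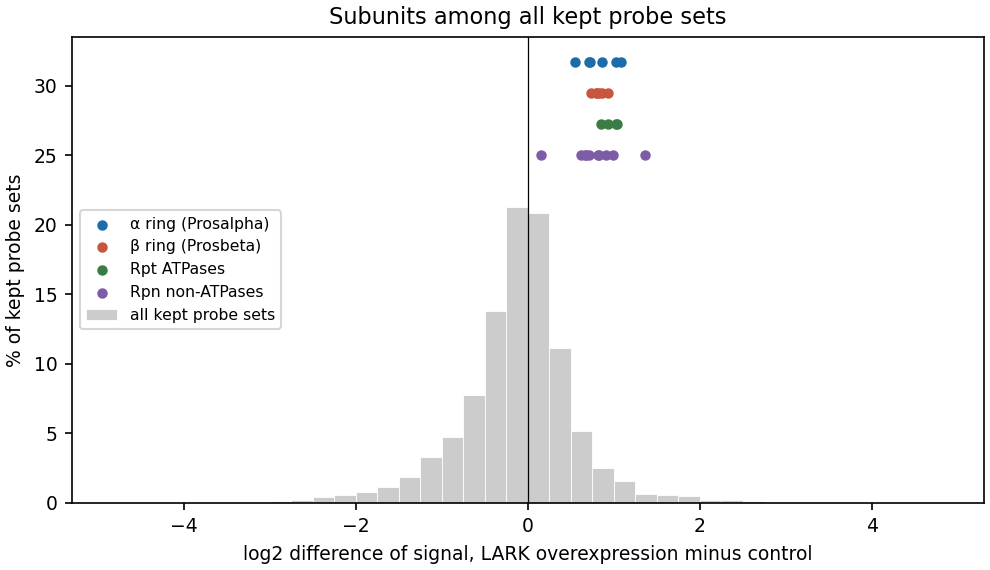
Log2 difference of signal between LARK overexpression and control (horizontal axis) for all kept probe sets, as a histogram in percent of probe sets, and for the 26 tested proteasome subunits, as points in 4 rows by group whose height carries no value. All 26 points lie above 0, between 0.16 and 1.36, whereas the histogram centres near its median of -0.07.

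No subunit passed the test on its own. With limma and Benjamini-Hochberg adjustment over all kept probe sets, 0 of 26 subunits had an adjusted p under 0.05, against 1.55% of kept probe sets in either direction and 0.339% in the upward direction; at an unadjusted p under 0.05, 5 of 26 were higher, against 3.38%. The standard errors of single subunits in this fit were 0.43 to 0.49, so a difference of the median size was less than 2 standard errors. These errors include the different scaling of the hybridization days. With the day added to the fit as a replicate block, they ran from 0.18 (Prosalpha2) to 0.46 (Rpn11). The signals themselves were separated more often than the test called them. In 20 of 26 subunits the lowest LARK overexpression signal exceeded the highest control signal, which held for 3.88% of kept probe sets. The 6 with overlap were Rpt5, Rpn3, Rpn5, Rpn6, Rpn7 and Rpn13. After each array was centred on its median, which moved the median difference of all kept probe sets to 0.06, all 26 differences stayed above 0 (55.1% of kept probe sets) with a median of 0.95, and 14 of 26 subunits did not overlap (13.9%).

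Because both genotypes were hybridized on each of 3 days, every subunit could be compared within a day. On day 1 the median difference was 0.18 and 21 of 26 subunits were above 0 (47.8% of kept probe sets were). On day 2 the median was 1.13 with 26 of 26 above 0 (42.6%), and on day 3 it was 1.07 with 26 of 26 above 0 (43.8%). A difference of more than 2-fold was seen for 0, 17 and 16 of the 26 subunits on days 1, 2 and 3, against 3%, 8.04% and 8.59% of kept probe sets. In all, 21 of 26 subunits were higher with LARK overexpression on 3 of 3 days (17.6%). With the day as a replicate block in the limma fit, 19 of 26 had an unadjusted p under 0.05 in the upward direction (6.17%), but 0 of 26 passed after adjustment, as did 0% of kept probe sets. When an intensity trend and a robust variance prior were added to the block, 9 of 26 passed (1.51%), namely Prosalpha6, Rpt2, Rpt4 and Prosbeta2 to Prosbeta7.

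**Figure D2:**
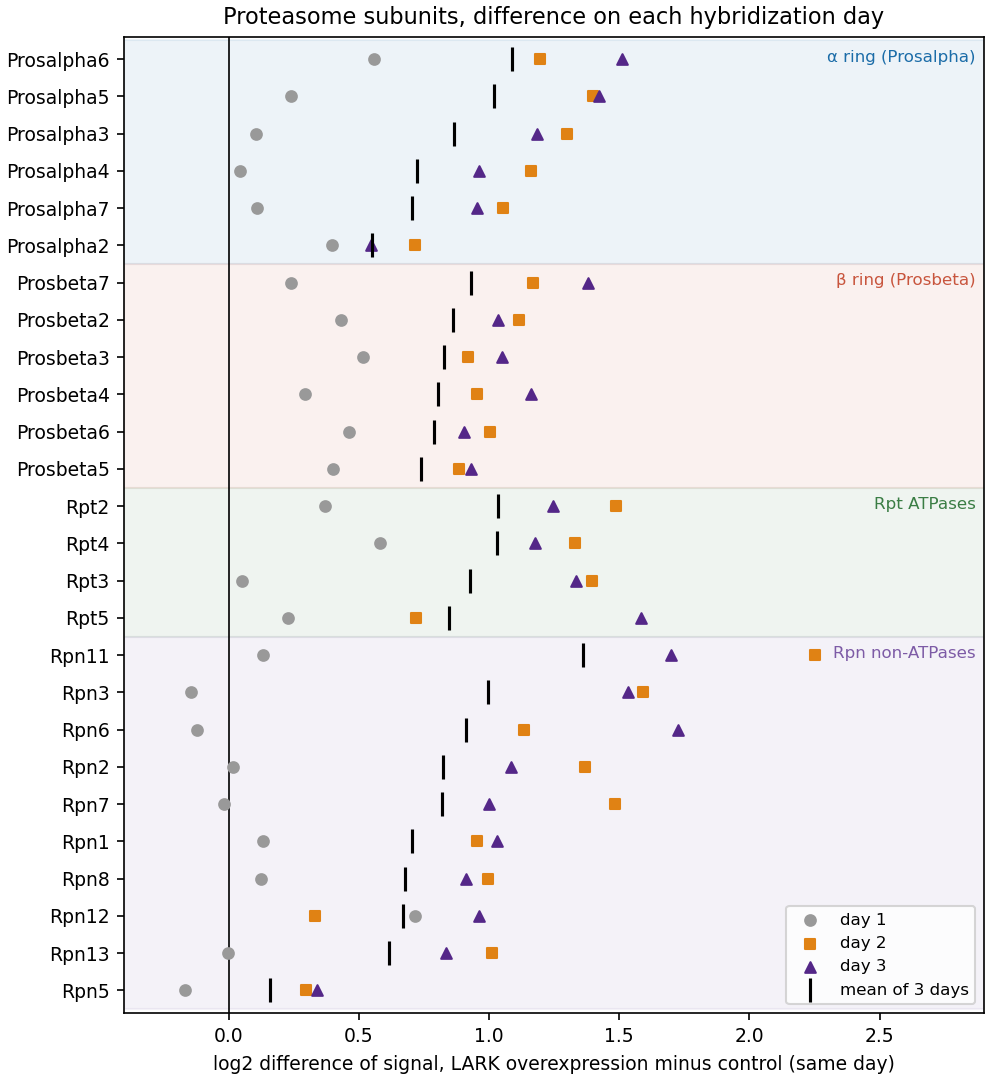
Log2 difference of signal between LARK overexpression and control (horizontal axis) for each of the 26 tested subunits (rows, by group), within hybridization day 1 (circles), day 2 (squares) and day 3 (triangles), with the mean of the 3 days as a black bar. On day 1 the points lie between -0.17 and 0.72, and on days 2 and 3 they lie between 0.30 and 2.25 and between 0.34 and 1.73.

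The smaller differences of day 1 went with the LARK overexpression array of that day. On centred arrays, each of the 26 subunits was below its own genotype mean on LARK overexpression array 1, by a median of 0.70 on the log2 scale (deviation -0.70), while the median deviations were 0.40 and 0.31 on arrays 2 and 3. The control arrays deviated by medians of -0.13, 0.12 and 0.04. Even so, the median centred signal of the subunits was 1.91 on LARK overexpression array 1, against 1.53, 1.87 and 1.67 on the 3 control arrays. Without LARK overexpression array 1, limma called 1 of 26 subunits (Rpn11, adjusted p = 0.0389; 1.78% of probe sets were called higher), and with centring as well it called 21 of 26 (4.6%). With all 6 arrays, centring alone gave 0 calls among the subunits (0.117%), and so did a trend and robust prior without the block (0.975%). On days 2 and 3 alone, 1 subunit was called (Rpn3, adjusted p = 0.0441 from limma; 2.04%), or 13 with centring (3.74%).

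**Figure D3:**
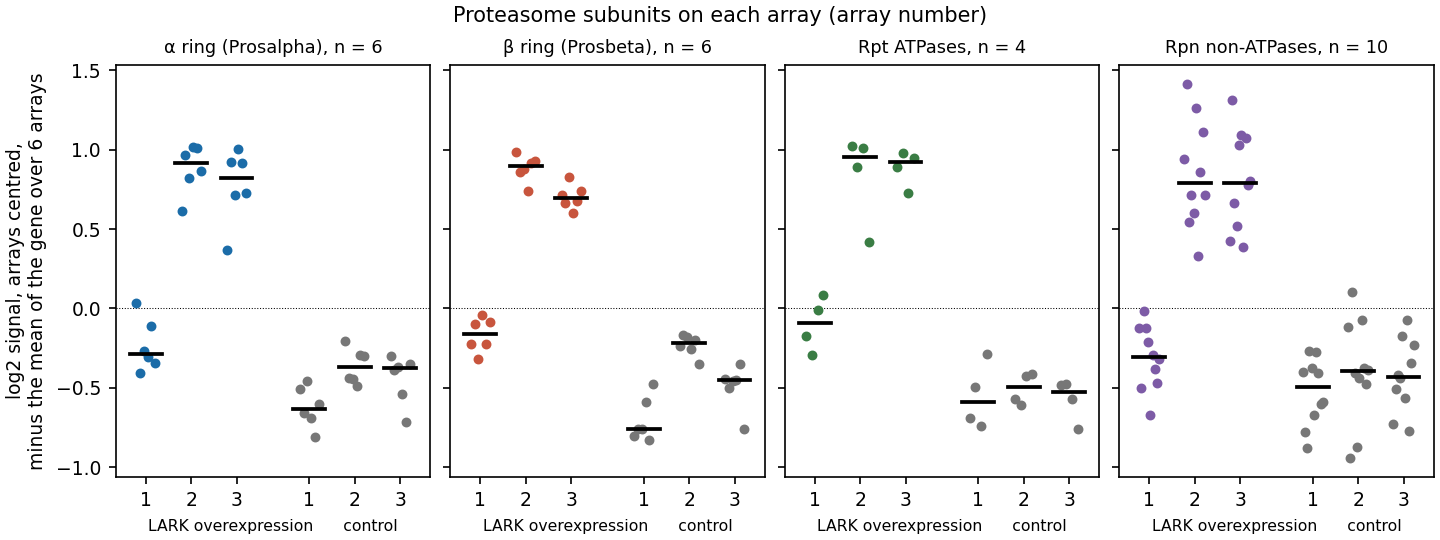
Log2 signal of each tested subunit on each array, after centring the array on its median and subtracting the gene's own mean over the 6 arrays (vertical axis), for arrays 1 to 3 of LARK overexpression (coloured points, left) and of the control (grey points, right) in the 4 subunit groups; black bars are medians. LARK overexpression arrays 2 and 3 stand above the control arrays in every group, and the median of array 1 lies between them.

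The α ring genes, whose products form the gated entrance of the core and dock the regulatory particle, had a median difference of 0.79 (0.55 to 1.09), with medians of 0.17, 1.18 and 1.07 on days 1, 2 and 3. All 6 were above 0 on every day (17.6% of kept probe sets were). In all 6 the genotypes did not overlap as deposited (3.88%), and in 4 of 6 they did not overlap on centred arrays (13.9%). Prosalpha6 had the highest difference of the group. Its signals were 404.1, 511.6 and 563.6 with LARK overexpression, against 274.6, 223.0 and 197.9 in the control. Every LARK overexpression array was thus higher than every control array, and the means were 493 ± 81.3 and 232 ± 39.1 (SD, n = 3 arrays each). The log2 difference was 1.09 (standard error 0.44, adjusted p = 0.317 from limma). Prosalpha2 had the lowest difference of the ring. It read 711.1, 621.9 and 615.5 with LARK overexpression, against 540.4, 379.0 and 421.6 in the control. The genotypes again did not overlap, though the gap was narrower, and limma gave a log2 difference of 0.55 (its standard error was 0.43 and its adjusted p = 0.883). Prosalpha5 gave 537 ± 138 with LARK overexpression and 263 ± 58.7 in the control (SD, n = 3 arrays each), and its log2 difference was 1.02. The other α subunits, Prosalpha3, Prosalpha4 and Prosalpha7, had differences of 0.86, 0.72 and 0.71. A further probe set, shared by Prosalpha1 and its copy Prosalpha1R and therefore not counted among the 39 genes, read 537.2, 618.2 and 720.4 with LARK overexpression, against 502, 315.7 and 345.7 in the control (log2 difference 0.71, standard error 0.44, adjusted p = 0.708 from limma).

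The β ring genes encode the proteolytic chamber. Prosbeta5 and Prosbeta2 provide the chymotrypsin-like and the trypsin-like site, and Prosbeta3, Prosbeta4, Prosbeta6 and Prosbeta7 build the rings without cutting peptides themselves. This group had the smallest interquartile range of the 4 groups, 0.06, with differences of 0.74 to 0.93 around a median of 0.82. That spread holds for the probe sets used, since averaging in the weak second set of Prosbeta6 would put that gene at 1.36. The group also had the highest day 1 median of the 4 (0.42, against 0.98 and 1.04 on days 2 and 3). All 6 genes were higher with LARK overexpression on each day. None overlapped between genotypes as deposited (3.88% of kept probe sets did not), and 4 of 6 did not on centred arrays (13.9%). Prosbeta7, with the highest difference of the ring, read 867.7, 1023 and 1056 with LARK overexpression, against 734.3, 455.2 and 406.1 in the control. The separation was widest on days 2 and 3, and the log2 difference was 0.93 (standard error 0.45, adjusted p = 0.478 from limma). Prosbeta5 read 695, 696.1 and 744.2 with LARK overexpression, against 525.7, 376.9 and 390.3 in the control. The genotypes did not overlap, and its log2 difference was the lowest of the ring, 0.74 (standard error 0.43, adjusted p = 0.657 from limma). Prosbeta2 gave 798 ± 126 with LARK overexpression and 437 ± 41.6 in the control (SD, n = 3 arrays each). Its log2 difference was 0.86, above the median of the group. Prosbeta3, Prosbeta4 and Prosbeta6 had differences of 0.83, 0.80 and 0.79.

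The Rpt genes encode the ATPases of the base of the regulatory particle, which unfold the substrate and push it into the core. The 4 measured members had the highest median of the groups, 0.98 (0.85 to 1.03), with day medians of 0.30, 1.36 and 1.29. Rpt2, whose tail takes part in opening the α ring gate in yeast, read 364.7, 488.6 and 523.4 with LARK overexpression, against 282.3, 174.3 and 220.4 in the control. All LARK overexpression signals were above all control signals, and the log2 difference was 1.03 (standard error 0.45, adjusted p = 0.382 from limma). Rpt5 had the lowest difference of the 4. It read 616.9, 452.9 and 769.6 with LARK overexpression, against 526.2, 274.6 and 256.6 in the control. Here the signals overlapped as deposited, because the control array of day 1 lay above the LARK overexpression array of day 2, but not after centring (log2 difference 0.85, standard error 0.47, adjusted p = 0.608 from limma). Rpt4 gave 571 ± 50.3 with LARK overexpression and 282 ± 53.9 in the control (SD, n = 3 arrays each), and its log2 difference was 1.03, and Rpt3 had a difference of 0.93. On centred arrays the genotypes did not overlap in any of the 4 Rpt genes (13.9% of kept probe sets).

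The 10 Rpn genes encode the non-ATPase subunits, and they held both extremes of the list. Their median was 0.76 (0.16 to 1.36), with day medians of 0.01, 1.07 and 1.02. The genotypes did not overlap in 5 of the 10 as deposited (3.88% of kept probe sets) and in 2 on centred arrays (13.9%). On day 1 only 5 of the 10 were above 0, whereas all 12 genes of the core particle and all 4 ATPase genes were; whether the groups differ in their day 1 response was not tested. Rpn11, the metalloprotease that cuts ubiquitin chains off the substrate as it is threaded, had the largest difference of all 26 subunits. It read 226.3, 498 and 546 with LARK overexpression, against 206.7, 104.6 and 168 in the control. The day 1 arrays were close to each other and the arrays of days 2 and 3 were far apart, with day differences of 0.13, 2.25 and 1.70. The log2 difference was 1.36 (standard error 0.49, adjusted p = 0.238 from limma), at percentile 97.8 of all kept probe sets.

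Rpn5, a scaffold subunit of the lid that holds Rpn11, had the smallest difference of the whole list. It read 720.5, 646.8 and 792.2 with LARK overexpression, against 808, 526.3 and 625.6 in the control. The genotypes overlapped, the control was the higher on day 1, and the log2 difference, 0.16 (limma, standard error 0.44, adjusted p = 0.9993), was smaller than its error. The other lid genes were Rpn3, Rpn6, Rpn7, Rpn8 and Rpn12, with differences of 0.99, 0.91, 0.82, 0.68 and 0.67. Rpn3 read 387.7, 862.5 and 900.9 with LARK overexpression, against 428, 285.9 and 311.1 in the control, so that LARK overexpression array 1 lay among the control values and the other arrays did not. In Rpn3, Rpn6 and Rpn7 the day 1 difference was below 0 (-0.14, -0.12 and -0.02) and all but 1 of those of days 2 and 3 exceeded 2-fold (the day 3 value of Rpn7 was just under it). Rpn12 did not follow this order. It read 366.7, 314.8 and 401.8 with LARK overexpression, against 223.1, 250 and 206.5 in the control. The genotypes overlapped only after centring, and its day 2 difference of 0.33 was below that of 0.72 on day 1. Among the non-ATPase genes of the base, Rpn1 and Rpn2, large scaffolds of which Rpn1 receives shuttle factors, had differences of 0.71 and 0.82. Rpn13, a ubiquitin receptor that also binds the deubiquitinase Uch-L5, read 451.4, 470.2 and 484.3 with LARK overexpression, against 452.3, 233.3 and 271.2 in the control. Its day 1 signals were nearly equal and the genotypes overlapped (log2 difference 0.61, standard error 0.45, adjusted p = 0.838 from limma).

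In Drosophila several subunits have a second gene, named with a T or an R after the subunit number, that is used in the male germline. The array measured 13 of these copies: Prosalpha3T, Prosalpha4T1, Prosalpha4T2, Prosalpha6T, Prosbeta2R1, Prosbeta2R2, Prosbeta4R1, Prosbeta4R2, Prosbeta5R1, Rpn12R, Rpn13R, Rpt3R and Rpt4R. Their signals were 2 to 37.7 with LARK overexpression and 2 to 37.2 in the control, so none was tested. The highest, Prosalpha3T, read 37.7, 13.9 and 15.1 with LARK overexpression, against 37.2, 22.7 and 18.8 in the control. Each of the 26 other genes was above 40 on every array. The second probe sets of Prosbeta6 and Prosalpha7 were also under 40 on every array and were not used; averaged with the first, they would give log2 differences of 1.36 for Prosbeta6 and 0.08 for Prosalpha7, in place of 0.79 and 0.71. Prosbeta1, Rpt1, Rpt6, Rpn9 and Rpn10 were not analysed here. None of the 26 subunit probe sets (0 of 26) belongs to the RNAs listed as bound by LARK in the study's immunoprecipitations. The share of all kept probe sets on those lists was not computed, so this count does not set the subunits apart from other genes.

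Sem1, a small acidic subunit of the lid whose symbol the name rule does not match, read 537.3, 789.9 and 905.1 with LARK overexpression, against 328.8, 240 and 310.9 in the control. All LARK overexpression signals exceeded all control signals, on each day, and the log2 difference was 1.32 (standard error 0.45, adjusted p = 0.190 from limma). Sem1 was called with the day block, trend and robust prior (adjusted p = 0.0138 from limma), and also without LARK overexpression array 1. Genes that work beside the proteasome were more mixed. Of 12 kept genes for its assembly and regulation, 8 were above 0 (43.8% of kept probe sets) and 4 below, with a median of 0.23. Limma called 0 of them (1.55%), and 0 had an unadjusted p under 0.05 (319 higher and 701 lower of 9432 kept probe sets). Usp14, a deubiquitinase that binds the base, had the highest difference; it read 218.5, 363 and 412.3 with LARK overexpression, against 225, 110.6 and 174.2 in the control (log2 difference 0.97, standard error 0.47, adjusted p = 0.487 from limma). As for most subunits, its arrays of day 1 were close and those of days 2 and 3 were apart, although the genotypes overlapped. Pomp, the chaperone that matures the core, and Uch-L5, the deubiquitinase that binds Rpn13, had differences of 0.92 and 0.91 (standard errors 0.50 and 0.48, neither called), also with overlap. REG, which encodes an activator cap of the core, was at 0.08, and maf-S, a partner of cnc, was at 0.15. The transcription factor gene cnc itself read 267.8, 115.5 and 174.4 with LARK overexpression, against 379.9, 135.4 and 217.4 in the control. Its log2 difference of -0.35 was smaller than its standard error of 0.51. PI31, a regulator of the core, had the lowest difference of the list, -0.36, with 276.2, 120.6 and 117.4 with LARK overexpression against 201.7, 200.4 and 205.8 in the control; only its first LARK overexpression array was above the control arrays.

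Upstream of the proteasome, ubiquitin is activated, conjugated to substrates and recycled. Of 39 kept genes for ubiquitin and its conjugation, 16 were above 0 and 23 below (43.8% of kept probe sets were above 0), with a median of -0.06 and a range of -1.55 to 1.24. Limma called 0 of them with the genotype alone (1.55% of kept probe sets in either direction). At an unadjusted p under 0.05, 1 was higher (3.38%) and 3 were lower (701 of 9432 kept probe sets). With the day block, trend and robust prior, limma called 3 lower (4.55% of kept probe sets), namely Ubc6, the F-box gene ago and the ubiquitin ligase gene Nedd4. Whether the list differs from the subunits was not tested. The genes that encode ubiquitin itself had differences near 0, namely Ubi-p5E (0.08), Ubi-p63E (-0.11), and RpL40 and RpS27A, which encode ubiquitin fused to ribosomal proteins (-0.12 and -0.04). Uch, a ubiquitin C-terminal hydrolase, had the highest difference; it read 249.3, 284 and 355.6 with LARK overexpression, against 199.2, 82.9 and 115 in the control, without overlap (log2 difference 1.24, standard error 0.47, adjusted p = 0.269 from limma). The ubiquitin-conjugating enzyme gene Ubc6 was at the other end, with 17.7, 22 and 31 with LARK overexpression, against 80.2, 67.9 and 56.2 in the control. Its LARK overexpression signals were all under 40, and its log2 difference, -1.55 (limma, standard error 0.45, adjusted p = 0.104), is therefore less well measured than those of the subunits.

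The TER94 segregase extracts ubiquitinated proteins and hands them to the proteasome. Its genes were split as well, with 4 of 9 above 0 (43.8% of kept probe sets) and a median of -0.04. Limma called 0 of them (1.55%), and 0 had an unadjusted p under 0.05 (319 higher and 701 lower of 9432 kept probe sets). TER94, the ATPase of this complex and the gene with the highest difference in its list, read 1342, 1309 and 1403 with LARK overexpression, against 1146, 640.2 and 792.7 in the control, without overlap (log2 difference 0.69, standard error 0.44, adjusted p = 0.726 from limma). Its cofactor Ufd1 was at 0.64, the cofactor Npl4 at -0.09, and the ubiquitin ligase gene sip3 had the lowest value, -0.35. The COP9 signalosome and the translation factor eIF3 share the protein folds of the proteasome lid. Of their 18 kept genes, 8 were above 0 and 10 below, with a median of -0.02 and a range of -0.46 (eIF3b) to 0.29 (CSN7). Limma called 0 of them (1.55% of kept probe sets), and 0 had an unadjusted p under 0.05 (319 higher and 701 lower of 9432). The eIF3 subunit genes eIF3f1 and eIF3i were at -0.27 and -0.28.

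**Figure D4:**
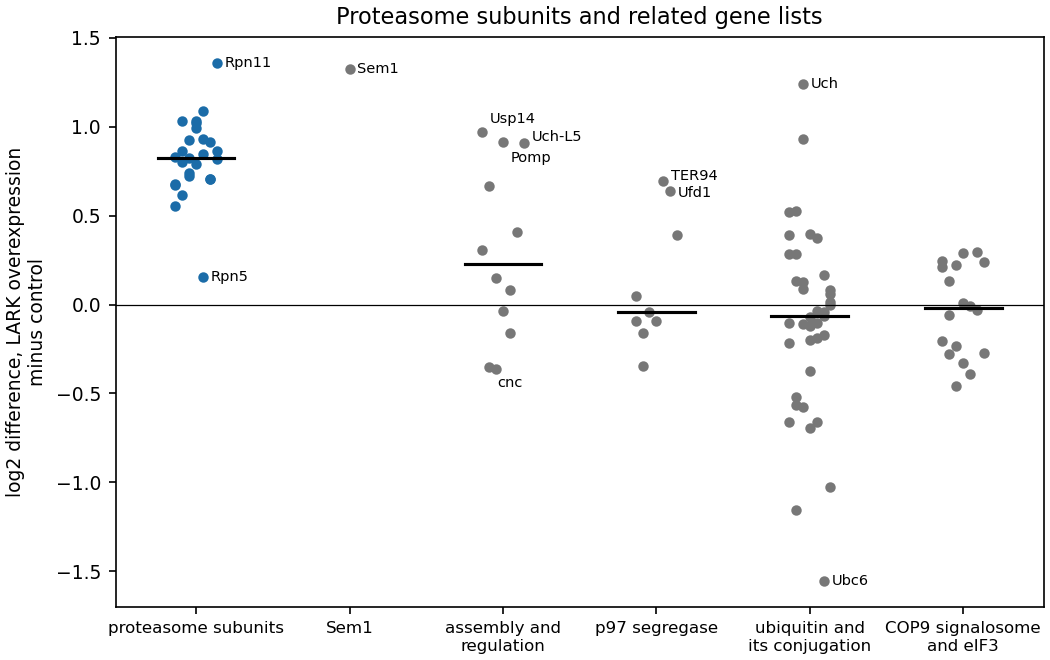
Log2 difference of signal between LARK overexpression and control (vertical axis) for the 26 tested proteasome subunits, Sem1 and 4 lists of related genes; each point is a gene and black bars are medians. The subunits have a median of 0.83 and no point below 0, whereas the medians of the other lists are 0.23, -0.04, -0.06 and -0.02 with points on both sides of 0.

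Some markers of other cell types and of RNA quality differed between the genotypes, not all of them on every array. The 7 gut genes on the array were trypsins, Jonah proteases and a maltase. Their summed signal was 447.5, 2427 and 2580 on LARK overexpression arrays 1, 2 and 3, against 234.5, 187.4 and 193.8 in the control. Of the 7, 6 were called higher (0.339% of kept probe sets). The 5 muscle genes summed to 2052, 5593 and 6612 with LARK overexpression and 2366, 1478 and 1749 in the control. LARK overexpression array 1 thus lay among the control values. Of the 5, only the gene of the flight muscle protein fln was called, higher (0.339%). Act88F and TpnC4 had differences of 3.08 and 4.93, whereas the gene up was at 0.27 and Mlp84B at -0.48. The gut and muscle sums, as deposited, were higher on arrays 2 and 3 than on array 1 of LARK overexpression. On centred arrays, each of the 26 subunits was below its genotype mean on LARK overexpression array 1. As deposited, not every subunit rose (Prosalpha2 read 711.1, 621.9 and 615.5). Of the 7 kept neuron genes, 3 were called lower, against 114 of 9432 kept probe sets. They were nSyb, Gad1 and VGlut, which serve synaptic release and transmitter supply. Syn and elav were also below 0, at -1.43 and -0.13, but ChAT and para were above 0, both at 0.37. All 8 neuron genes on the array, which include brp under the filter, summed to 507.4 to 1034 with LARK overexpression and 1294 to 2214 in the control. Among the 3 kept head and eye genes only Obp99b was called, higher (0.339%). Of the 3 kept testis and male germline genes, 0 were called (1.55% in either direction) and none was above 40 on every array. All 15 genes of this list on the array, of which only 3 were kept, summed to 275.1 to 441.3 with LARK overexpression and 222.9 to 372.3 in the control. Mst84Dd, a sperm protein gene, read 151.4, 130.7 and 111 with LARK overexpression, against 120.4, 31.3 and 136.4 in the control. The ratio of 3′ to 5′ signal of the eIF-4a control probe sets was 6.52, 6.26 and 6.05 with LARK overexpression, against 3.02, 2.81 and 2.81 in the control, with no overlap. For actin the ratio was 5.51, 5.79 and 6.21 with LARK overexpression, against 3.41, 1.89 and 1.95 in the control, so the genotypes lay closer on day 1. For GAPDH it was 5.06, 4.61 and 3.23 with LARK overexpression, against 2.82, 4.04 and 2.95 in the control, with overlap. The part of these cell types and of RNA quality in the subunit differences was not tested.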

How the data were processed

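Drosophila genome arrays of head RNA were compared, 3 from LARK overexpression flies and 3 from control flies. The deposited values are linear signal intensities, which the authors made with MAS5 according to the submitters' processing notes (no version); the methods describe GCRMA instead, so the normalization of the deposited values is not that of the methods. Of 14010 probe sets, 44 were array controls. The array annotation named 1 gene for 12443 of the others, several for 327 and none for 1196.

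Signals were converted to log2, and only probe sets that exceeded 40 on 1 array or more entered the tests (9432 of 13966). Genotypes were compared with lmFit and eBayes in limma 3.58.1 (R 4.3.3), 2-sided, with Benjamini-Hochberg adjustment over all kept probe sets; a difference was called at an adjusted p under 0.05. In simulated data of 9432 probe sets for this comparison, the fit recovered 71 of 100 log2 changes of 2 and 100 of 100 changes of 3, with 44 false calls. With the replicate block it recovered 37 of 100 and 68 of 100, with 7 false calls. The simulated noise was independent for each probe set and array, around the offsets of the arrays, with no day effect of single genes. These counts therefore do not tell which fit suits the real arrays better. With the genotype alone, false calls were a larger share of the calls than the threshold of 0.05 aims at. Smaller changes were not simulated. Same-numbered arrays shared a hybridization day according to the scanner records, and their deviations from the genotype means correlated at 0.0936, 0.172 and 0.0256 for numbers 1, 2 and 3, against -0.212 to 0.102 for different numbers. Only the correlation of number 2 lay above that range. The day was used as a block in an alternative fit because the arrays shared it.

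The subunits, the related lists and the marker lists were chosen with earlier results of these data known. Values on every array were given for the subunit with the highest mean signal, the highest and the lowest difference of each group and for the 3 highest and 3 lowest differences of all subunits. From each related list, the genes named were at least the 2 with the highest mean signals and those with the extreme differences; Rpn3, Rpn12 and further genes were added after their values were seen. Alternatives were centring, quantile normalization, an offset of 16, a floor at 40, no filter, a filter above 100, a trend and robust prior, the block, leaving out each array, days 2 and 3 alone, and the mean over the probe sets of a gene. Division of arrays by trimmed means, and days 2 and 3 alone on centred arrays, were added after seeing the data.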

Additional observations from a re-analysis of the deposited data

How the results depend on the processing

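All 26 subunits kept a positive difference under all 25 alternatives, in which their median log2 difference ran from 0.71 to 1.31, and none was called lower (0 of 26) under any. Their differences could not change without a filter, with the filter above 100, the floor at 40, another prior or the block. Centring and division by trimmed means shifted every gene by an equal amount. The number called higher by limma was 0 with the genotype alone and depended on the setting. It was 0 with the replicate block, which takes the shared hybridization day as the pairing (smallest adjusted p = 0.134), and 9 with the block, an intensity trend and a robust prior. It was 1 on days 2 and 3 alone (Rpn3) and 13 on these days with the arrays centred, a setting chosen after seeing the data. Leaving out each array in turn gave 0 to 1 subunits called higher as deposited and 0 to 21 on centred arrays, where LARK overexpression array 1 was the array whose removal gave 21. The β ring median was 0.76 to 0.94 when each array was left out and 0.73 to 1.29 on centred arrays, the highest value again without LARK overexpression array 1. The smallest adjusted p among the subunits was 0.0612 with an offset of 16, 0.0966 with the filter above 100, 0.0783 with a trend and robust prior, 0.114 with centring, 0.171 with quantile normalization, 0.179 with the floor at 40 and 0.422 without a filter. Over all kept probe sets, 32 were called higher and 114 lower; these were 11 and 117 with centring, 113 and 129 with the offset, 0 and 0 with the floor, 108 and 106 with the filter above 100, 1 and 11 without a filter, 92 and 138 with the trend and robust prior, 0 and 0 with the block, and 142 and 429 with the block, trend and robust prior. For single subunits, 605 of the recomputed differences kept their direction and their side of the threshold, 45 passed the threshold where they had not, and 0 turned their direction. These counts include the differences that could not change. Of the other medians, that of all kept probe sets was -0.34 to 0.17, that of the ubiquitin list -0.35 to 0.24, that of the TER94 list -0.30 to 0.25, that of the COP9 and eIF3 list -0.36 to 0.22 and that of assembly and regulation -0.07 to 0.45, so their signs depend on the setting. The causes of these changes were not tested. If the 3 arrays of a genotype share 1 RNA sample, as the series describes, differences between flies cannot be told apart from differences between genotypes.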
